A study of Mus musculus with 8 samples.

Results

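Germinal centre B cells collected 10 days after a first T-dependent immunisation (TD day 10, 2 arrays) were compared with resting B cells of unimmunised mice (2 arrays). The 4 arrays were taken by their labelled group from a series of 8, and the comparison was made over all probe sets other than the platform's controls. The arrays are Affymetrix mouse expression arrays, and an expression level is given throughout as the deposited intensity, a linear signal that can fall below 0. All mice were QMxB6 F1 animals, so every group shares that cross. Resting B cells were sorted as GL7- B220+ from pools of 6 and 9 mice. TD day 10 cells were sorted as GL7+ B220+ from 2 pools of 6 mice that had not been primed with carrier and had received 50 µg of alum-precipitated NP-chicken gamma-globulin with heat-killed B. pertussis into the peritoneum. The other 4 arrays served as reference groups. TD day 4 cells (GL7+ B220+, pools of 6 and 9 mice) came from mice primed with 50 µg of alum-precipitated chicken gamma-globulin with B. pertussis and given 50 µg of soluble NP-chicken gamma-globulin 5 weeks later. TI day 4 cells (GL7+ B220+, pools of 4 and 10 mice) came from mice given 30 µg of NP-Ficoll, a T-independent antigen. Each array is 1 pool of mice, and the design text calls the 2 pools of a group biological replicates. Animal age is not given in the sources used here. GL7 and B220 defined the sort, and time after immunisation, priming and antigen form differ together between the immunised groups.

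Germinal centres are transient structures in lymphoid follicles in which B cells activated by antigen divide rapidly, mutate their immunoglobulin genes and are selected by their affinity. The repressor Bcl6 is required for their formation. Germinal centre B cells leave the recirculating state of follicular B cells, whose traffic depends on receptors such as S1pr1 and Ccr7, and part of them later become plasma cells or memory B cells.

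Tests in limma, with both directions allowed, covered 7253 probe sets. A probe set was tested when it lay above a floor of 81 on at least 2 of the 8 arrays, and lower values were set to that floor before log2 was taken. A probe set was called when its Benjamini-Hochberg adjusted p was under 0.05. Against resting B cells 790 probe sets were called (10.9%), 468 higher in TD day 10 (6.45%) and 322 lower (4.44%). They stand for 370 genes that were higher and 269 that were lower among 5433 genes with a tested probe set of their own. The median fold was 2.43 among the higher and 2.46 among the lower probe sets, and 85 higher and 77 lower probe sets differed by more than 4-fold. The 2 arrays of each group did not overlap in any of the 790, nor in 49.3% of all probe sets tested. Both resting arrays lay under the floor in 90 of the higher probe sets, and both TD day 10 arrays in 69 of the lower ones, so their folds are lower bounds. Such a pair was set to the floor and added no spread to the test, which can make the p-values of these probe sets smaller. Folds are ratios of geometric means of the floored values and are given as "at least" where the dimmer group had an array under the floor, unless its other array was bright enough to bring the ratio of the plain means below that value. When each array was scaled to a common median, 364 probe sets were higher and 391 lower, so the share that was higher moved from 59.2% to 48.2%. The count was 863 without resting array 1, 580 without resting array 2, 297 without TD day 10 array 1 and 322 without TD day 10 array 2. Under all 4 of these omissions 227 probe sets kept their call, 136 higher and 91 lower.

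**Figure D1:**
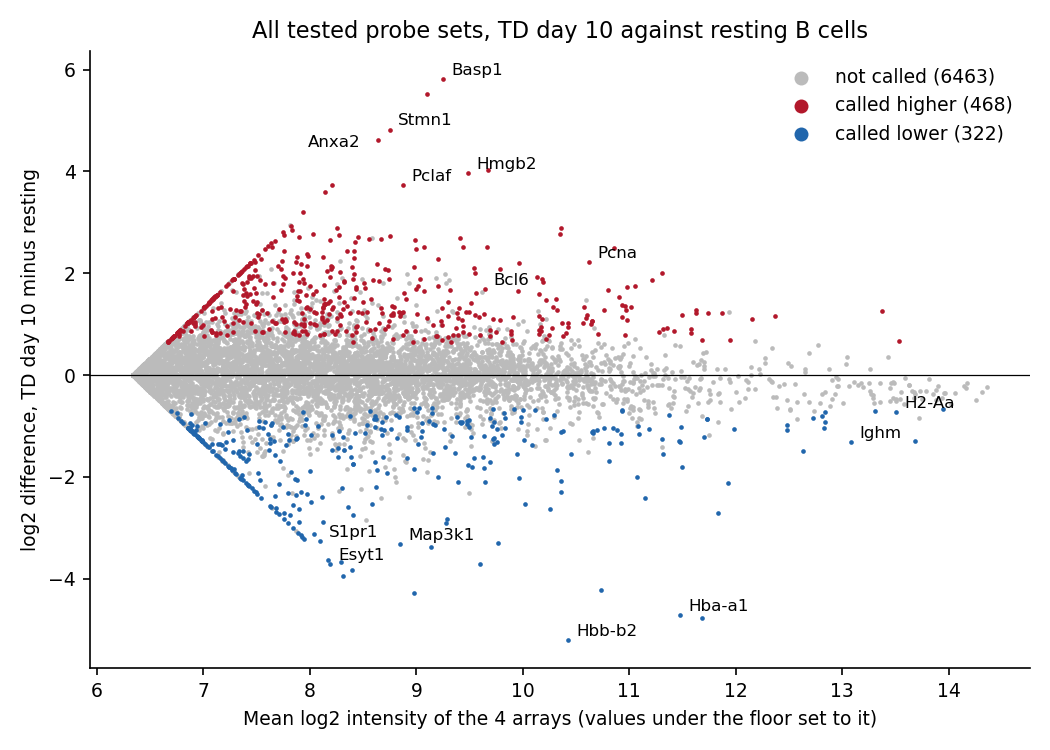
Each point is 1 of the 7253 tested probe sets, with its mean log2 intensity over the 2 resting and 2 TD day 10 arrays on the x axis and the log2 difference of TD day 10 from resting on the y axis. The 468 probe sets called higher are red and the 322 called lower are blue, and the slanted edges are probe sets whose lower group lies at the floor.

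Before the single genes, the arrays themselves were compared. The 2 resting arrays differed more from each other (SD of their log2 difference 0.695) than the 2 TD day 10 arrays (0.552). The ratio of the 3' to the 5' Gapdh control, a sign of RNA quality, was 0.867 and 1.59 on the resting arrays and 0.836 and 0.896 on the TD day 10 arrays. The Gapdh ratio thus set resting array 2 apart, and that array was left out in turn. The same ratio for actin was 1.55 and 1.88 on the resting arrays and 1.24 and 1.36 on the TD day 10 arrays. By actin both resting arrays thus lay above both TD day 10 arrays. Leaving out 1 array cannot test such a difference between the groups, and its part in the results was not tested. Among the markers of germinal centre B cells that were measured, 4 of 5 were called higher in TD day 10, and their summed intensity was 2438 and 2004 on the resting arrays against 4992 and 5102. Of 9 measured B cell markers 0 were higher and 3 were lower, with summed intensities of 39353 and 36318 in resting and 23348 and 24670 in TD day 10, so B cell transcripts were bright in both groups.

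Bcl6 and the proliferation antigen Mki67 were read first as checks of the sort. Bcl6 measured 452 and 438 on the resting arrays and 1475 and 1407 on the TD day 10 arrays. Both TD day 10 arrays lay above both resting arrays, a 3.24-fold rise (log2 difference 1.69, SE 0.17, adjusted p = 0.00369). One Mki67 probe set measured 9 and 34 in resting and 623 and 522 in TD day 10, at least 7.04-fold higher (adjusted p = 0.00618), while a second one read 195 and 105 against 396 and 355 and was not called (2.62-fold, adjusted p = 0.0518). The list of germinal centre identity genes held 15 measured members, of which 6 rose and 0 fell, with a median log2 difference of 0.63 against 0.045 over all tested probe sets. In this and every list below a gene is counted by its brightest probe set. Gcsam, a signalling adaptor of germinal centre B cells, measured 154 and 101 in resting and 768 and 501 in TD day 10, a 4.97-fold rise (adjusted p = 0.00678). S1pr2, the receptor that holds B cells in the germinal centre, rose from 689 and 583 to 1006 and 1154 (1.70-fold). The transcription factor Mef2b rose from 948 and 777 to 1347 and 1685 (1.76-fold), and the coactivator Pou2af1 from 2256 and 2220 to 3894 and 4502 (1.87-fold). The sixth member, the histone methyltransferase Ezh2, rose from 48 and 71 to 280 and 318, at least 3.68-fold. Lmo2 read 845 and 933 against 780 and 701 and was not called. Gna13, the G protein subunit downstream of S1pr2, gave a split reading: its brighter probe set (539 and 512 against 608 and 641) was not called, and a second rose from 69 and 95 to 270 and 281, at least 3.14-fold (adjusted p = 0.00477). The 6 calls were 3 without resting array 2 and 3 without either TD day 10 array, and Bcl6 and Gcsam kept theirs with each of the 4 arrays left out. Fas lay under the expression filter and was not tested.

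Genes of cell division were higher in TD day 10. Of 14 measured genes of replication licensing and initiation 9 rose and 0 fell, with a median log2 difference of 1.76. Of 20 genes of the replication fork and nucleotide supply 13 rose and 0 fell, with a median of 1.64. Of 26 genes of the spindle, kinetochore and cytokinesis 16 rose and 0 fell, with a median of 1.39. Among cyclins, their kinases and their inhibitors 7 of 22 rose and 1 fell, with a median of 0.66. These shares stand against 6.45% of all tested probe sets that were higher.

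The promoters of 4 of these genes are printed to show the letters that were counted in the replication and mitosis genes. Each is the RefSeq window on GRCm38.p6 from 250 bases before to 50 bases after the annotated start, read 5′ to 3′ on the gene's own strand. Capitals mark matches on either strand to any of 3 motifs. The first is the E2F site of S phase genes, searched as TTTCCCGC or as TTTGGCGC or as TTTCGCGC. The second is the cell cycle homology region (CHR), TTTGAA, and the third is the NF-Y box CCAAT. No match of 1 motif overlaps a match of another in these windows. Mcm3 lies at chr1:20820263-20820562 on the minus strand, Pclaf at chr9:65890073-65890372 on the plus strand, Ccnb2 at chr9:70421505-70421804 on the minus strand and Cdk1 at chr10:69352863-69353162 on the minus strand.
Mcm3: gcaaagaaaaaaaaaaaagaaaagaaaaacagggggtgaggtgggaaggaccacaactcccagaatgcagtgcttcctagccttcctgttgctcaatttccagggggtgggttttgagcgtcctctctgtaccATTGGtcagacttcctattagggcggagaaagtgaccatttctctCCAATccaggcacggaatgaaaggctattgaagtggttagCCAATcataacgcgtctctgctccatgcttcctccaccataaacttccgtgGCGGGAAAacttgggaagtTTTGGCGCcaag
Pclaf: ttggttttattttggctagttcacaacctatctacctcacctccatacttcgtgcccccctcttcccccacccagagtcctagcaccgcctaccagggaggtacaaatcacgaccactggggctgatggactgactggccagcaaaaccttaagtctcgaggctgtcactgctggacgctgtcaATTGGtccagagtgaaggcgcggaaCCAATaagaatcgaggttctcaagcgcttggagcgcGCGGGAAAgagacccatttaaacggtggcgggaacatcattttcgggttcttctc
Ccnb2: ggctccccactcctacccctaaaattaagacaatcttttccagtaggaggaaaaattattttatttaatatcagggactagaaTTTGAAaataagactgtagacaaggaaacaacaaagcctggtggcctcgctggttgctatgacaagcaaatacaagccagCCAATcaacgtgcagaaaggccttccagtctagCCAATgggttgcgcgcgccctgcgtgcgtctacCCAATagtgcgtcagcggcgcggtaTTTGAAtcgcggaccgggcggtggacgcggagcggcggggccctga
Cdk1: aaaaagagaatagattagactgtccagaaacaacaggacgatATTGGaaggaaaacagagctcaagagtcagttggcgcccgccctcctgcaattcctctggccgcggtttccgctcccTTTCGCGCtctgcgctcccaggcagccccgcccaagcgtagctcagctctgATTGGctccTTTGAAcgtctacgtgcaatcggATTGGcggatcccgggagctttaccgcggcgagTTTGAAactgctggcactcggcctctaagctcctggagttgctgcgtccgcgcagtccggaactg

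The Mcm3 window holds 2 E2F matches and 3 NF-Y boxes, and that of Pclaf 1 E2F match and 2 NF-Y boxes, with no CHR in either. The Ccnb2 window holds 2 CHR and 3 NF-Y boxes with no E2F match, and Cdk1 holds all 3 kinds. Ccnb2 and Cdk1 are members of the list of cyclins and their kinases, for which no share was counted. Across the measured licensing genes with a RefSeq window, 7 of 12 (58.3%) had an E2F match, while 0 of 22 spindle and cytokinesis genes did. In the list of the replication fork and nucleotide supply, which holds Pclaf, 4 of 19 genes (21.1%) had one. In the spindle list 17 of 22 genes (77.3%) had both a CHR and an NF-Y box, against 1 of 12 licensing genes. Among all genes called higher 9.90% of 313 windows had an E2F match and 13.7% had a CHR with an NF-Y box. Among genes called lower these shares were 2.91% and 1.46% of 206, among all 4358 tested genes with a window 3.99% and 5.44%, and over all 27025 RefSeq windows 1.91% and 7.12%. The first window listed was used for each gene, and 4358 of the 5433 tested genes had one. A match is a description of letters and not evidence of binding.

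**Figure D2:**
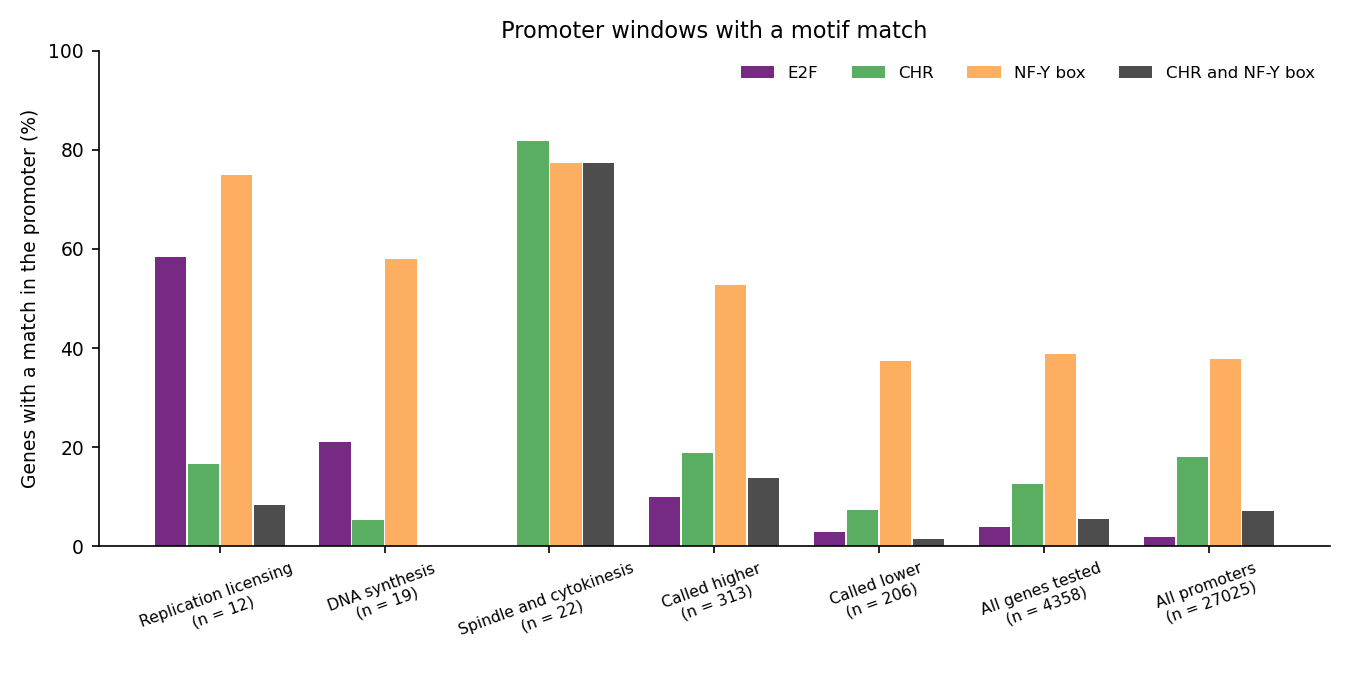
The bars give the percentage of genes whose 300-base promoter window holds a match, by gene set on the x axis (n, genes with a window) and by motif in colour. E2F matches reach 58.3% in the licensing list and 0% in the spindle list, where a CHR with an NF-Y box reaches 77.3% against 7.12% of all promoters.

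The Mcm proteins form the helicase that is loaded on origins before S phase. Mcm4 measured 195 and 144 in resting and 1145 and 1091 in TD day 10 (6.67-fold, adjusted p = 0.00155). Mcm2 rose from 112 and 173 to 920 and 783 (6.10-fold), Mcm3 from 632 and 610 to 2093 and 2305 (3.54-fold) and Mcm5 from 1373 and 1129 to 4260 and 4788 (3.63-fold). In each of them every TD day 10 array exceeded both resting arrays. Mcm7 rose from 293 and 273 to 903 and 932 (3.24-fold), whereas Mcm6 read 103 and 114 against 131 and 91 and was not called. Orc6 and Orc1, subunits of the origin recognition complex, rose at least 4.05-fold and 2.01-fold, and the loading factor Cdc6 rose from 43 and 79 to 300 and 357, at least 4.04-fold. Geminin (Gmnn), the inhibitor of licensing, was at 5 and -8 in resting and at 343 and 252 in TD day 10, at least 3.63-fold higher. Cdt1, the protein that geminin binds, read 1166 and 938 against 1251 and 1319 and was not called. With single arrays left out 8 to 9 of the 9 licensing genes were called.

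At the fork, the sliding clamp Pcna rose from 664 and 800 to 3450 and 3358 (4.67-fold, adjusted p = 0.00155). Its associated factor Pclaf rose from 159 and 104 to 1756 and 1661 (13.3-fold, adjusted p = 0.00126). Both subunits of ribonucleotide reductase, which makes deoxyribonucleotides, were higher. Rrm2 went from 180 and 144 to 700 and 712 (4.39-fold), and Rrm1 from -110 and 11 to 484 and 423 (at least 5.59-fold). The flap endonuclease Fen1 rose 3.94-fold, the primase subunit Prim1 at least 2.68-fold and the polymerase subunit Pola1 2.22-fold. Of the clamp loader, Rfc1, Rfc2, Rfc4 and Rfc5 rose by 2.18-fold to at least 4.20-fold, while Rfc3 (81 and 214 against 400 and 414) was not called. Rpa3, a subunit of the single-strand binding protein, rose from 82 and 88 to 638 and 582 (7.17-fold), and Rpa1 rose 2.49-fold. Pold1 read 682 and 544 against 616 and 618, groups that overlap. Without TD day 10 array 1 the 13 calls fell to 8.

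In the mitotic group Stmn1, which destabilises microtubules, rose from below the floor. It lay at -35 and -17 on the resting arrays and at 2387 and 2207 on the TD day 10 arrays, at least 28.3-fold higher (adjusted p = 2e-04). The cyclin kinase subunits Cks2 (71 and 68 against 1045 and 1121) and Cks1b (8 and 48 against 976 and 986) rose at least 13.4-fold and at least 12.1-fold. Cdc20, the activator of the anaphase-promoting complex, rose from 245 and 190 to 1235 and 1172 (5.58-fold). The chromosomal passenger genes rose together: Birc5 from 139 and 170 to 744 and 776 (4.94-fold), Cdca8 from 11 and 107 to 589 and 639 (at least 6.59-fold) and Incenp from 105 and 120 to 551 and 582 (5.04-fold). Among mitotic kinesins Kif23 rose at least 6.74-fold and Kif20a at least 5.82-fold. The checkpoint protein Mad2l1 rose 3.60-fold, the kinase Aurka at least 3.46-fold and topoisomerase Top2a at least 2.64-fold. The probe sets of the kinase Plk1 disagreed. The brightest one read 1024 and 1107 against 911 and 710 and was not called, while the other two rose at least 4.59-fold and at least 4.60-fold (57 and -19 against 411 and 336, and -339 and -362 against 508 and 273). Without TD day 10 array 1 the 16 calls fell to 8, and without TD day 10 array 2 to 10.

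Cyclin B2 (Ccnb2) rose from 660 and 550 to 2176 and 2275 (3.69-fold, adjusted p = 0.00246), and its partner Cdk1 from -169 and -63 to 397 and 294 (at least 4.22-fold). Cyclin D3 (Ccnd3) rose from 137 and 104 to 506 and 283 (3.17-fold), and the E2F partner Tfdp1 was higher by 2 probe sets, at least 7.60-fold and 6.36-fold. The inhibitor Cdkn1b (p27) fell from 148 and 197 to 5 and -12, at least 2.11-fold, and was the member of this list that went down. Its probe set passed the expression filter through the resting arrays alone, so this direction was built in by the filter. Cyclin D1 (310 and 240 against 276 and 232) was not called, and the Ccna2 probe set lay under the floor on all 4 arrays. The 7 rises were 3 without TD day 10 array 1.

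**Figure D3:**
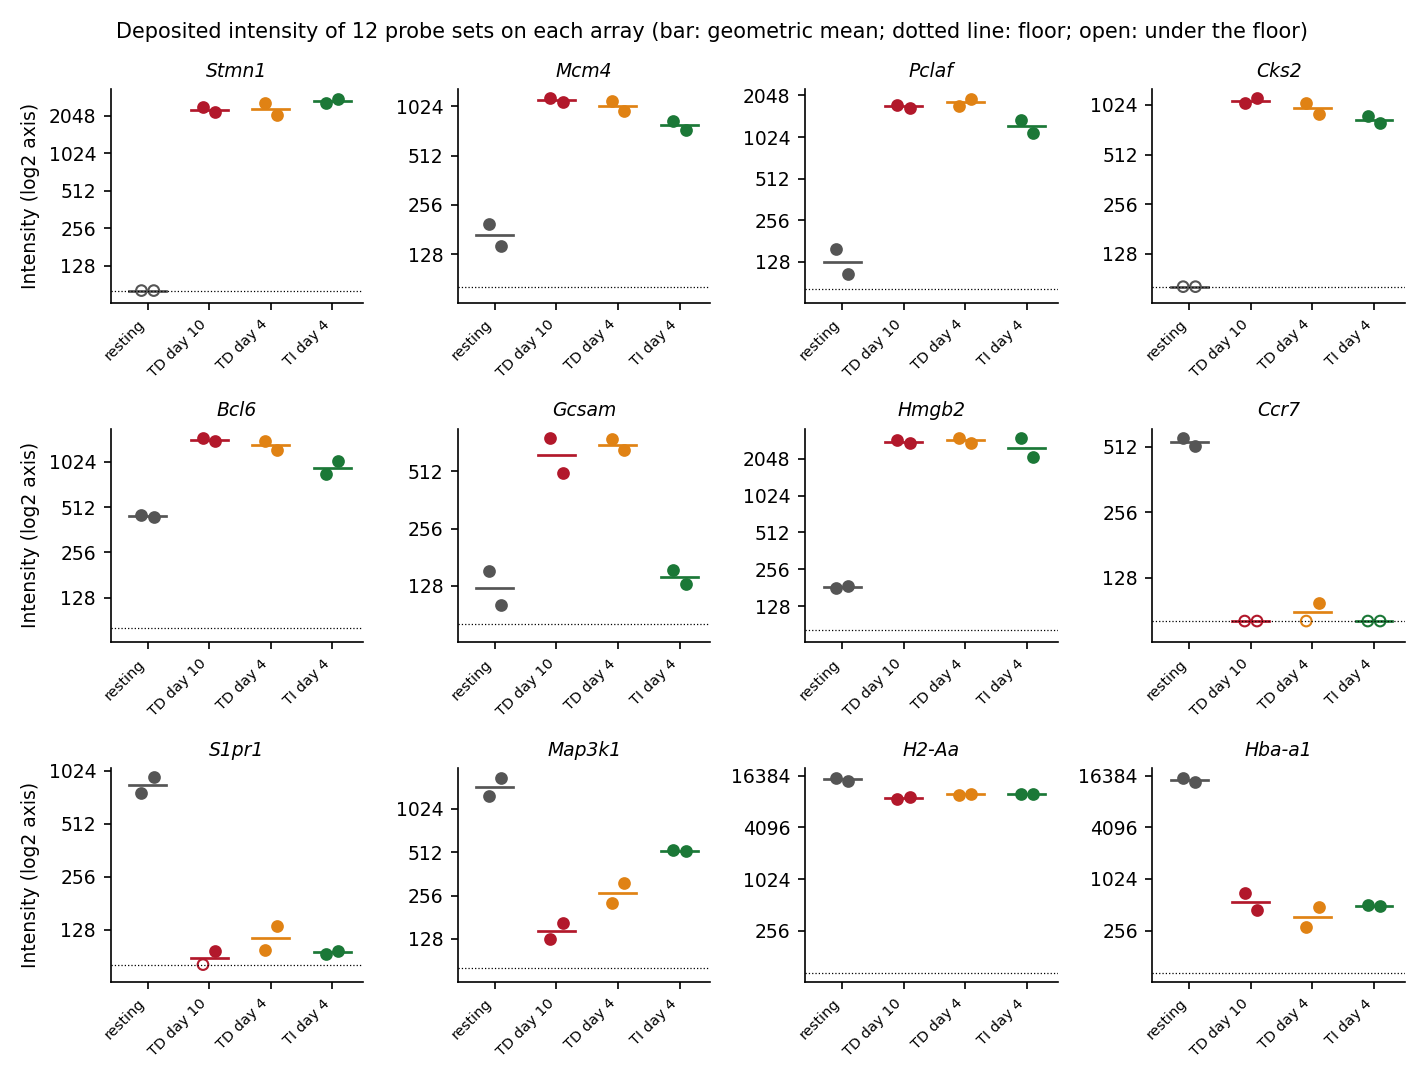
Each panel shows 1 probe set, with every array's deposited intensity on a log2 axis by group, values under the floor drawn open at the floor and bars at geometric means. Stmn1, Mcm4, Pclaf, Cks2, Bcl6, Gcsam and Hmgb2 lie higher on both TD day 10 arrays than on both resting arrays, and Ccr7, S1pr1, Map3k1, H2-Aa and Hba-a1 lie lower.

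Chromatin genes moved in the same direction. All 22 measured members of the list of chromatin enzymes and high mobility group proteins had a positive log2 difference, 14 rose and 0 fell, and the median was 1.00. Hmgb2, a DNA-bending protein, measured 179 and 185 in resting and 2911 and 2771 in TD day 10, a 15.6-fold rise (adjusted p = 0.000658). The maintenance methyltransferase Dnmt1 lay at -377 and -175 in resting and at 366 and 354 in TD day 10 (at least 4.44-fold), and Uhrf1, which recruits it, rose from 116 and 122 to 769 and 842 (6.76-fold). The histone variant H2az1 rose from 1125 and 1411 to 5094 and 5062 (4.03-fold). Eed, a partner of Ezh2 in the polycomb complex, rose 2.45-fold, and the third core subunit Suz12 (116 and 177 against 320 and 339) was not called (adjusted p = 0.0538). The calls were 10 and 8 without resting arrays 1 and 2 and 6 without either TD day 10 array. In the list of hypermutation, class switching and repair genes 2 of 14 rose (14.3%, against 6.45% of all tested probe sets). They were the damage-marking histone H2ax (3.17-fold) and the cohesin subunit Rad21 (1.76-fold). The uracil glycosylase Ung read 774 and 554 against 981 and 1052 and was not called (adjusted p = 0.144). Without TD day 10 array 2 neither of the 2 was called.

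The lists of energy and protein turnover genes had smaller median rises. Of 36 oxidative phosphorylation genes 9 rose and 0 fell (median 0.58), among them the complex I subunit Ndufs1 (170 and 182 against 458 and 485, 2.68-fold) and the cytochrome oxidase subunits Cox7a2 (2.19-fold) and Cox7b (2.13-fold). The highest fold in the list was that of Atp5j (85 and 138 against 720 and 353, 4.65-fold, adjusted p = 0.0229), whose TD day 10 arrays were far apart. In all 31 of the 36 had a positive difference, called or not. In glycolysis 6 of 14 rose, while the median stayed at 0.10. These were Ldha (1309 and 1328 against 3039 and 2791, 2.21-fold), Pgk1 (2.15-fold), Tpi1 (2.16-fold), Pgam1 (2.36-fold), Pkm (2.10-fold) and Pfkp (2.31-fold). Aldolase (Aldoa, log2 difference -0.42) and Eno3 (0.10), an enolase, were not called. Of 30 proteasome subunits 5 rose by 1.63-fold to 2.03-fold, with a median of 0.47. Without TD day 10 array 1 the counts were 2 for oxidative phosphorylation, 1 for glycolysis and 1 for the proteasome, and without TD day 10 array 2 they were 2, 2 and 0. In the list of MYC and nucleolar genes 5 of 21 rose, with Ncl (300 and 467 against 1522 and 1467, 3.99-fold) and Npm1 (619 and 511 against 1868 and 1656, 3.13-fold) as nucleolar proteins. Mxd4, which competes with MYC for its partner MAX, fell from 1251 and 1113 to 278 and 312 (4.01-fold). The Myc probe set itself read 146 and 145 against 83 and 69 and was not called (adjusted p = 0.0923). Without TD day 10 array 1 0 members of the list were called, and without TD day 10 array 2 there were 1 rise and 1 fall.

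Genes of the resting, recirculating B cell fell. Of 16 measured members of that list 7 fell and 0 rose, with a median log2 difference of -0.98, against 4.44% of all probe sets that were lower. S1pr1, the receptor for exit from lymphoid tissue, measured 765 and 937 in resting and 77 and 97 in TD day 10, at least 9.55-fold lower (adjusted p = 0.00131). Ccr7, which guides cells to the T zone, fell from 561 and 518 to 42 and 31, at least 6.66-fold (adjusted p = 0.000903). Outside the resting group only TD day 4 array 2 (98) lay above the floor for Ccr7. It thus passed the expression filter only with the resting arrays, and the direction of its fall was built in by the filter. The low-affinity IgE receptor Fcer2a (CD23) fell from 2201 and 2703 to 709 and 641 (3.62-fold), and the repressor Klf3 from 840 and 847 to 169 and 202 (4.57-fold). Btg1, an inhibitor of proliferation, fell from 4639 and 4104 to 1446 and 1542 (2.92-fold), and lymphotoxin beta (Ltb) from 10228 and 10760 to 5229 and 4926 (2.07-fold). The complement regulator Cd55 fell at least 4.07-fold. The homing receptor Cxcr5 (959 and 861 against 470 and 495, adjusted p = 0.0698) and the complement receptor Cr2 (491 and 528 against 275 and 264) were lower on both arrays without passing the test. For the transcription factor Foxp1 the brighter probe set (384 and 504 against 155 and 257) was not called either, and a second fell from 203 and 335 to 39 and 50, at least 3.22-fold. With single arrays left out 4 to 6 of the list were called, 4 without TD day 10 array 2. From these pooled cells a fall in transcript per cell and a change in the mix of cells cannot be told apart.

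The wider list of migration and adhesion genes had 6 falls and 0 rises among 22. Besides S1pr1 and Ccr7 these were Ccr6 (1505 and 1271 against 409 and 257, 4.27-fold), Cd47 (1357 and 2027 against 440 and 343, 4.27-fold), Icam2 (2.14-fold) and the integrin chain Itgb7 (1.77-fold). Cxcr4, the receptor that draws germinal centre cells to the dark zone, read 259 and 332 against 305 and 352, groups that overlap. The falls were 3 and 2 without TD day 10 arrays 1 and 2. Among marginal zone and B1 genes 3 of 10 fell and 0 rose. Notch2, required for marginal zone B cells, fell from 930 and 643 to 68 and 98 (at least 8.68-fold). Cd1d1, which presents lipids, fell from 255 and 342 to -9 and 7 (at least 3.65-fold), and the syndecan Sdc4 from 827 and 405 to -257 and -772 (at least 7.14-fold). Cd1d1 and Sdc4 passed the expression filter through the resting arrays alone, so the direction of both falls was built in by the filter. A second, dimmer Notch2 probe set had a log2 difference of 0.71 and was not called. The Notch target Dtx1 (1711 and 1999 against 630 and 937) was not called (adjusted p = 0.0645). The marginal zone count was 3 or 4 with any 1 array left out.

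Of 16 measured genes of MHC class II antigen presentation 4 fell and 12 were not called, none had a positive difference, and the median was -0.51. The class II alpha chain H2-Aa measured 15575 and 14325 in resting and 8773 and 9280 in TD day 10, a 1.66-fold fall (log2 difference -0.73, SE 0.14, adjusted p = 0.0277). H2-Oa, a subunit of the inhibitor of peptide loading, fell from 1995 and 1899 to 834 and 980 (2.15-fold). The proteases Ctss, which cleaves the invariant chain, and Ctsb fell 2.40-fold and 2.17-fold. The invariant chain Cd74 (25276 and 20707 against 17607 and 18818) and the beta chain H2-Ab1 (9836 and 8301 against 6311 and 6762) lay lower on both arrays and were not called. Without either TD day 10 array 2 of the list were called.

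Receptor and signalling genes held fewer calls. In the list of B cell receptor chains, coreceptors and signalling 3 of 24 fell (12.5%), 1 rose (4.17%), and the median was -0.48. Over all tested probe sets 4.44% were lower and 6.45% higher. The receptor chain Cd79b fell from 10557 and 9614 to 4979 and 5710 (1.89-fold), and its partner Cd79a (9702 and 7003 against 4405 and 4669) was not called (adjusted p = 0.0569). The phosphatase Ptpn6 fell 2.07-fold and the kinase Blk 2.12-fold. The inhibitory Fc receptor Fcgr2b rose from 157 and 189 to 287 and 321 (1.76-fold). Ptprc, which carries the B220 form used in the sort, read 662 and 744 against 786 and 708. Among cytokine receptors, JAK-STAT genes and interferon factors 6 of 25 fell and 0 rose. Il4ra, the interleukin-4 receptor chain, fell from 700 and 975 to 178 and 267 (3.79-fold), while a second Il4ra probe set had an uncalled log2 difference of 0.33. Stat6, the factor it activates, went from 352 and 526 to 6 and -28 (at least 5.31-fold), and Irf9 from 636 and 488 to 21 and 111 (at least 5.88-fold). Stat6 passed the expression filter through the resting arrays alone, so its direction was built in by the filter. Ifnar2, Irf1 and Irf5 fell 2.76-fold, 1.68-fold and 1.58-fold. In the CD40 and NF-kB list 3 of 18 fell and 0 rose, namely Nfkb2 (613 and 611 against 291 and 255, 2.25-fold), its inhibitor family member Nfkbie (at least 2.31-fold) and Birc3 (2.77-fold). Cd40 itself read 315 and 443 against 220 and 210 (adjusted p = 0.138). Without either TD day 10 array none of the NF-kB falls and 2 of the cytokine falls were called. The receptor list then had 0 falls without TD day 10 array 1 and 2 without array 2.

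Of the Bcl2 family, Fas and caspase genes 2 of 19 rose (10.5%, against 6.45% of all tested probe sets) and 0 fell. Bid, which links caspase-8 to mitochondria, rose from 12 and 64 to 281 and 359 (at least 3.92-fold, adjusted p = 0.00411), and cytochrome c (Cycs) rose at least 2.07-fold. Bcl2 read 420 and 279 against 183 and 233 and Mcl1 1636 and 2272 against 1012 and 998, neither of them called. With either TD day 10 array or resting array 1 left out 1 of the 2 rises was called. Among B lineage transcription factors Spib fell from 2730 and 3441 to 1652 and 1430 (1.99-fold) by its brighter probe set, with 0.78 on the log2 scale and no call in a second one. Pou2af1 was the 1 of 18 that rose, and the median was -0.32. The rise and the fall were 5.56% of the list each, against 6.45% and 4.44% of all tested probe sets. The list had 0 calls without resting array 2 or without either TD day 10 array. Of 19 immediate early genes Gadd45b rose from 60 and 229 to 803 and 1006 (6.60-fold with the lower resting array at the floor), and Ier2 (2.88-fold) and Jund (2.11-fold) fell. The latter 2 also belong to a list of transcripts that respond to cell dissociation and sorting, of which 2 of 18 fell and 0 rose. In the immediate early list 5.26% rose and 10.5% fell, against 6.45% and 4.44% of all tested probe sets. No immediate early gene was called without either TD day 10 array.

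**Figure D4:**
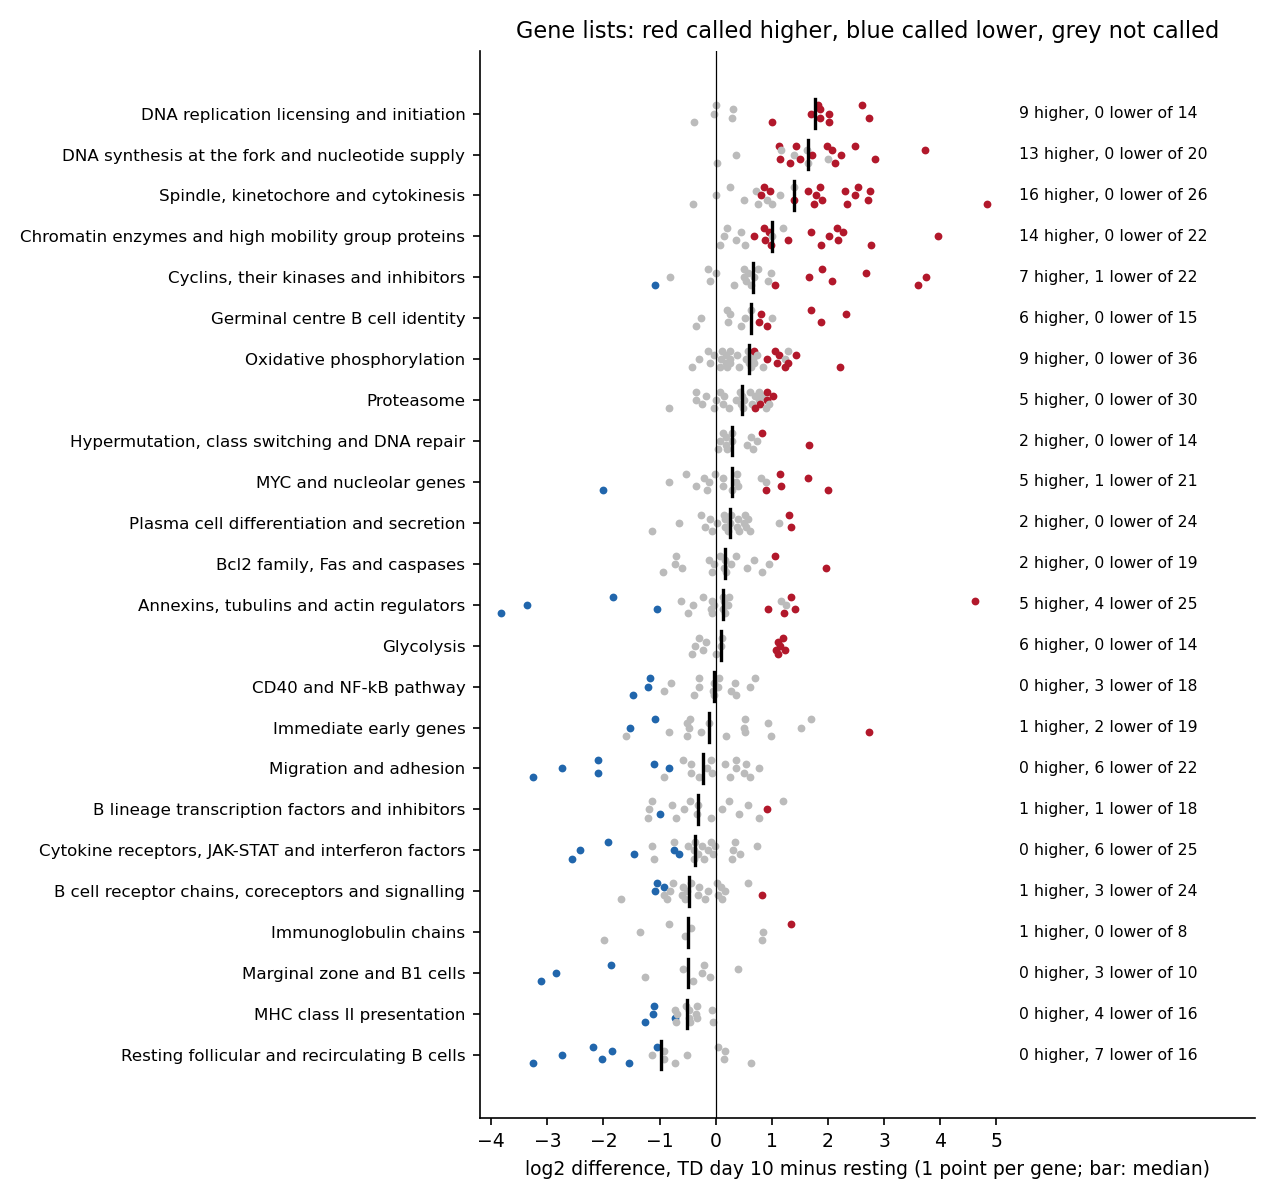
Each point is 1 measured gene of a list, at its log2 difference of TD day 10 from resting on the x axis. Black bars are list medians, from 1.76 for replication licensing to -0.98 for resting follicular genes, and red and blue points are genes called higher and lower.

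The annexin, tubulin and actin list held large changes of both signs, 5 rises and 4 falls among 25. Annexin A2 (Anxa2) measured 44 and -362 in resting and 1886 and 2072 in TD day 10, at least 24.4-fold higher (adjusted p = 2e-04). S100a10, the light chain that binds Anxa2, went the other way, from 1682 and 1951 to 140 and 219 (10.3-fold lower, adjusted p = 0.00549). In both genes the arrays of the 2 groups were far apart, and both calls held with each of the 4 arrays left out, whereas the 5 rises of the list were 3 without resting array 2 and 1 without either TD day 10 array. The actin-binding calponin Cnn3 fell from 1130 and 1426 to 4 and 99 (at least 14.2-fold) and the capping protein Capg from 1465 and 1531 to 400 and 446 (3.55-fold). The tubulins Tubb6 and Tuba1c rose 2.66-fold and 2.32-fold.

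Over all named genes the highest fold was that of a probe set of Basp1, a membrane-bound signalling protein. It went from -26 and 6 to 4375 and 4794, at least 56.5-fold (adjusted p = 2e-04), but a second and brighter probe set, by which the gene was counted in the germinal centre list, read 3376 and 2462 against 3820 and 4049 and was not called (1.36-fold, adjusted p = 0.28). The acyl-CoA binding protein Dbi rose from 137 and 92 to 859 and 798 (7.37-fold, adjusted p = 0.00206). Of 162 genes with several tested probe sets and at least 1 call, 33 had all of them called in 1 direction and 91 had the rest in the same direction without a call. In the other 38, Basp1 not among them, at least 1 uncalled probe set pointed the other way or had a difference of 0.

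The 15 largest falls also held the following genes. The cholesterol transporter Abcg1 fell from 689 and 820 to -31 and -162 (at least 9.28-fold), the lysosomal cholesterol carrier Npc2 from 678 and 788 to 9 and 54 (at least 9.02-fold) and the ganglioside activator Gm2a from 2992 and 2503 to 276 and 281 (9.83-fold). Esyt1, which tethers the endoplasmic reticulum to the plasma membrane, fell from 1052 and 1064 to -156 and -262 (at least 13.1-fold, adjusted p = 2e-04). Esyt1 passed the expression filter through the resting arrays alone, so the direction of its fall was built in by the filter. Its values in all other groups were set to the floor, which leaves no spread there. The kinase Map3k1 fell from 1260 and 1684 to 128 and 166 (9.99-fold), and the lectin receptor Cd302 from 850 and 608 to -41 and -39 (at least 8.88-fold). Of these, Abcg1, Esyt1, Map3k1 and Cd302 kept their calls with each of the 4 arrays left out.

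Some transcripts of red cells, neutrophils and macrophages were also lower in TD day 10. The red cell genes Hbb-b2 and Hba-a1 fell from 8744 and 7985 to 329 and 157 (36.8-fold) and from 15550 and 13751 to 696 and 447 (26.2-fold). Over 9 measured red cell markers, of which 4 fell and 0 rose, the summed intensity was 26903 to 30455 on the resting arrays and 5506 to 5760 on the TD day 10 arrays. Of 9 neutrophil markers 1 fell and 0 rose, 3 had a positive log2 difference, and the list median was -0.25. The 1 that fell, S100a8, went from 2833 and 3279 to 514 and 468 (6.21-fold). The summed level over the 9 markers, S100a8 included, was 7317 to 7382 against 2865 to 3389. Of 12 macrophage markers 3 fell and 0 rose, C1qa at least 8.03-fold, C1qc at least 2.15-fold and Vcam1 at least 4.68-fold, with summed levels of 7058 to 7761 against 4850 to 5953. A second Vcam1 probe set had an uncalled log2 difference of 0.05. C1qc passed the expression filter through the resting arrays alone. C1qa and the called Vcam1 probe set passed it only with the resting arrays. Outside that group TI day 4 array 1 alone lay above the floor for them (130 and 207). The direction of these 3 falls was thus built in by the filter. T cell markers summed to 2441 to 2917 against 2212 to 2299, and of 7 measured 1 fell and 0 rose, Cd2 (838 and 1129 against 334 and 338, 2.89-fold). Cd3e, Cd3d, Cd8a and Thy1 lay under the floor on both TD day 10 arrays, as did the macrophage genes C1qa, Adgre1 and Lyz2. Of 13 T cell genes on the array 8 lay under the floor on both TD day 10 arrays and 7 on both resting arrays. For 16 macrophage genes these counts were 7 and 4. The part of these cells in the other falls was not tested. With the markers of other cells and the immunoglobulin chains left out, 464 probe sets were higher and 303 lower.

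Immunoglobulin probe sets differed among themselves. One Ighm probe set fell from 14061 and 13376 to 4926 and 6089 (2.50-fold, adjusted p = 0.00702), and a second read 20080 and 16255 against 8894 and 11545 without a call (adjusted p = 0.0531). Of the other 9 Ighm probe sets none was called. For Ighg3, 2 of 7 probe sets were higher, from 167 and 125 to 480 and 388 (2.99-fold) and from 188 and 128 to 575 and 685 (4.05-fold). These probe sets can share sequence with related constant regions, so the gene read by each is uncertain. The variable gene Ighv14-2 was lower by 3 probe sets, 19.5-fold, with 1 TD day 10 array at the floor, in the one that went from 2574 and 1940 to 77 and 162. Another of them (1971 and 794 against -27 and -15) passed the expression filter only with the resting arrays, so its direction was built in. Jchain, which links secreted IgM and IgA, rose from 803 and 764 to 1860 and 2121 (2.54-fold, adjusted p = 0.0105). Among genes of plasma cell differentiation and of secretion 2 of 24 rose (8.33%, near the 6.45% of all tested probe sets). They were Jchain and the elongation factor Ell2 (2.47-fold), and the list median was 0.26. Xbp1, the driver of the secretory programme, read 756 and 548 against 497 and 856, and the groups overlapped. Neither rise was called without either TD day 10 array.

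To see which of these differences belonged to the unprimed day 10 response, TD day 10 was tested directly against the other 2 germinal centre groups. The resting arrays do not enter these differences. Against TD day 4, 0 of 7253 probe sets were called by limma (0%), with 373 at an unadjusted p under 0.05 and a smallest adjusted p of 0.142. With equal-variance tests that borrow no spread from other probe sets, 14 were called. No gene named above was thus shown to differ between the primed and unprimed T-dependent responses. Bcl6 measured 1475 and 1407 in TD day 10 and 1409 and 1236 in TD day 4, with a log2 difference of 0.13 and a 95% interval from -0.29 to 0.54. The smallest adjusted p was shared by a probe set of the nuclear import receptor Kpnb1 and one of the splicing factor Prpf19. Kpnb1 read 34 and 48 in resting, 227 and 209 in TD day 10, 39 and 80 in TD day 4 and 79 and 57 in TI day 4, so TD day 10 was the 1 group above the floor. The zinc finger protein Zfp292 (38 and -96, 193 and 197, 4 and -120, 18 and -181 in the same order) had the same pattern. Both passed the expression filter through the TD day 10 arrays alone, so this pattern was built in by the filter. Prpf19 (108 and 98, 298 and 336, 96 and 66, 51 and 96) was also highest in TD day 10, with resting arrays above the floor. All 3 were called higher than resting (Kpnb1 at least 2.69-fold, Zfp292 at least 2.41-fold and Prpf19 3.08-fold) and higher than TI day 4, and none against TD day 4 (adjusted p = 0.142 for Kpnb1 and Prpf19 and 0.144 for Zfp292). Each of the 3 genes has a brighter probe set that was not called, with log2 differences from resting of -0.11 for Kpnb1, -0.17 for Zfp292 and 0.36 for Prpf19.

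Against TI day 4, 174 probe sets were called (2.4%), 87 higher in TD day 10 (1.2%) and 87 lower (1.2%). The count fell to 4 and 16 without TD day 10 arrays 1 and 2, to 45 and 23 without TI arrays 1 and 2, and to 0 when only those 4 arrays entered the model. The 3' to 5' Gapdh ratio was 1.24 and 1.68 on the TI arrays, above 0.836 and 0.896 on the TD day 10 arrays, and its part in this comparison was not tested. Of the 174, 69 were also called against resting, which is 39.7% of the calls against TI day 4 and 8.73% of those against resting. Of these 69, 65 had the same direction in both comparisons and 4 the opposite one. Both comparisons use the same 2 TD day 10 arrays, so a call in both is not 2 independent results. One Basp1 probe set was at 4375 and 4794 in TD day 10 and at 584 and 495 in TI day 4. It was 8.52-fold higher in TD day 10 (adjusted p = 0.00412), while the brighter Basp1 probe set was not called in this comparison. Gcsam was at 768 and 501 against 156 and 131 in TI day 4 (4.34-fold, adjusted p = 0.0234), the latter overlapping the resting arrays at 154 and 101. Nfkb2, lower than resting, was higher than in TI day 4 (291 and 255 against 74 and 10, at least 3.36-fold). Mxd4 (278 and 312 against 1228 and 1198, 4.12-fold), Cd302 (at least 5.34-fold), Map3k1 (128 and 166 against 527 and 522, 3.60-fold) and Ctsb (873 and 907 against 2406 and 2239, 2.61-fold) were lower in TD day 10 than in either resting or TI day 4 cells. Of the plasma cell and secretion list 0 of 24 were higher and 5 lower than in TI day 4. Jchain stood at 1860 and 2121 against 7347 and 9356 in TI day 4 (4.17-fold lower), Xbp1 at 497 and 856 against 2072 and 2951 (3.79-fold lower) and Edem1, which serves degradation from the endoplasmic reticulum, at 118 and 118 against 639 and 803 (6.07-fold lower). For Ighm 2 probe sets were lower than in TI day 4, one at 4926 and 6089 against 15985 and 17178 (3.03-fold) and one at 8894 and 11545 against 26623 and 26193 (2.61-fold). Of the cell division lists 1 of 14 licensing genes, Orc1, was higher than in TI day 4, and 0 of 20 fork and 0 of 26 spindle genes were called in that comparison. Plasma cell markers summed to 2757 and 3501 in TD day 10 and 10107 and 13628 in TI day 4, and the part of such cells in these differences was not tested.

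**Figure D5:**
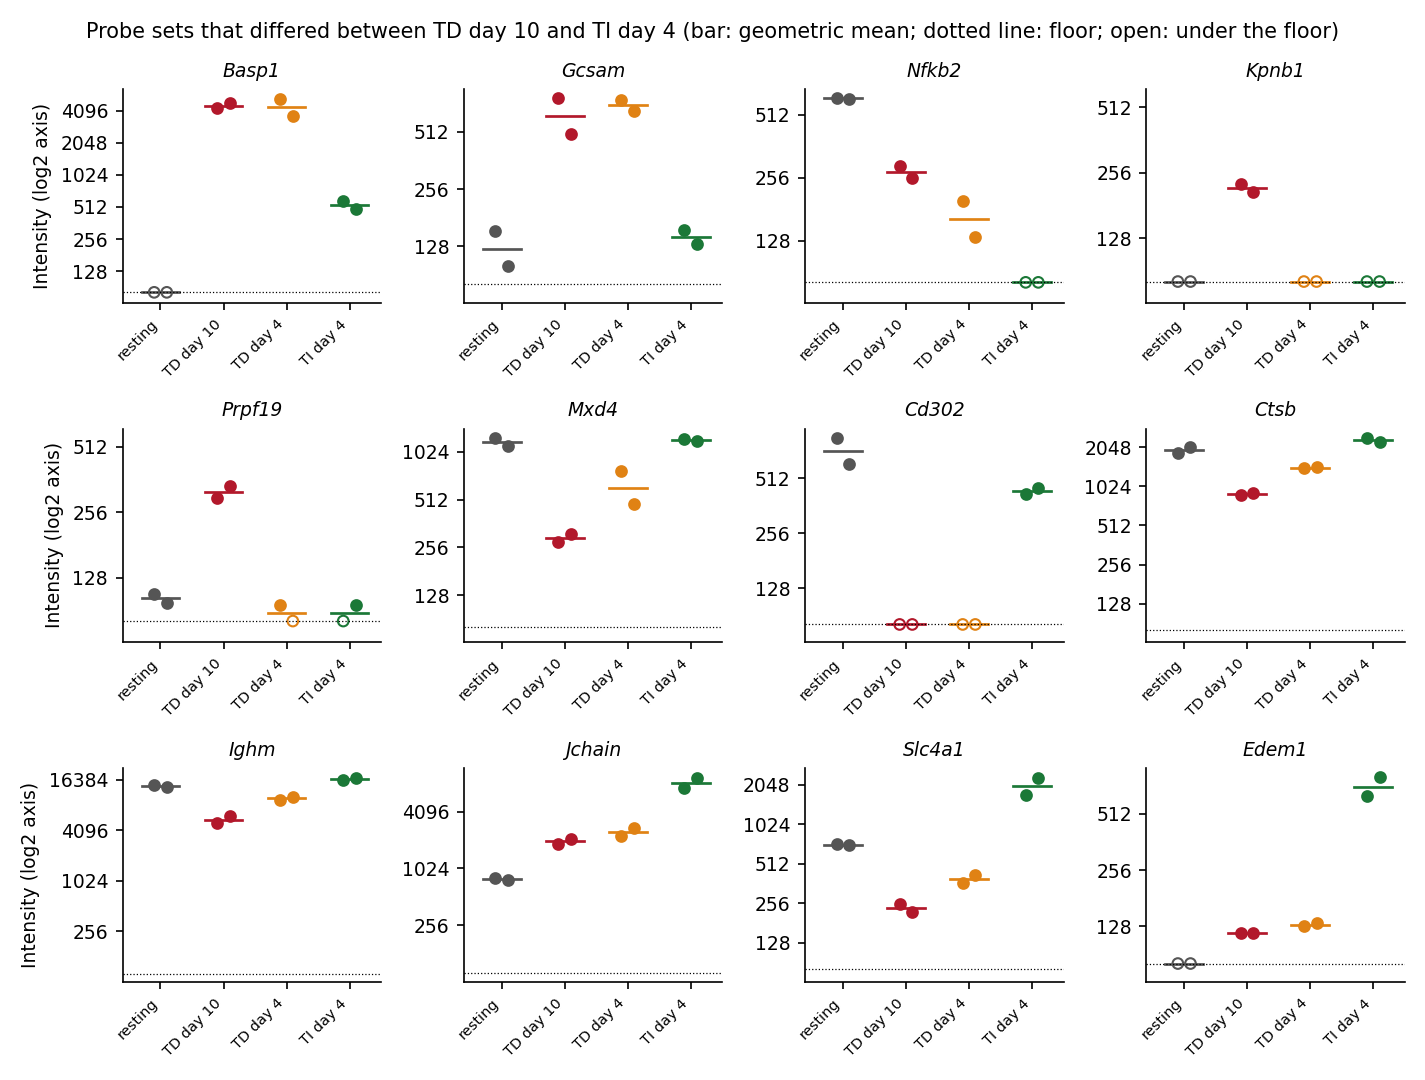
Each panel shows 1 probe set that was called between TD day 10 and TI day 4, with every array's deposited intensity on a log2 axis by group, values under the floor drawn open at the floor and bars at geometric means. Kpnb1, which passed the expression filter through the TD day 10 arrays alone, and Prpf19 are highest in TD day 10. The Basp1 probe set shown and Gcsam are high in both T-dependent groups, and Jchain, Slc4a1 and Edem1 are highest in TI day 4.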

How the data were processed

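RNA of 8 pooled B cell samples was hybridised to Affymetrix mouse arrays, 1 array per pool and 2 per group. The deposited table holds the authors' intensity values for 12488 probe sets, 30.1% of them at or under 0. Which software and scaling made them is not given in the sources used here. No further scaling was applied. The 66 control probe sets were left out, values under the floor of 81 (the 50th percentile) were raised to it, and probe sets above it on at least 2 arrays were tested. One model of 4 groups was fitted to all 8 arrays with limma 3.58.1 in R 4.3.3 (4 residual and 2.20 prior degrees of freedom), with Benjamini-Hochberg adjustment over 7253 probe sets, and was tested on simulated data. Symbols came from the platform annotation: 10855 probe sets had 1 symbol, 396 several and 1237 none. Named genes are the 15 largest rises and falls, the 6 smallest p-values of each list, the smallest p-values of the other comparisons, Bcl6, Mki67 and the immunoglobulin constant regions. Other list members were named after their values were seen. Groups, lists and tests were chosen with earlier results of these data known. Only 2 arrays per group limit the precision. Alternatives covered the floor, filter, scaling, model, replicate block and each array left out.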

Additional observations from a re-analysis of the deposited data

Results flagged for a closer look

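A set of genes that differed from resting B cells in TD day 10 also differed between TD day 10 and TI day 4 by the limma test of that difference itself, and each is given as the log2 value of TD day 10 minus TI day 4. The 2 comparisons share the TD day 10 arrays and are not independent. Higher in TD day 10 were Basp1 (3.09), Gcsam (2.12), Prpf19 (1.84), Nfkb2 (1.75), Kpnb1 (1.43), Zfp292 (1.27) and Cdipt (1.19). Kpnb1 and Zfp292 passed the expression filter through the TD day 10 arrays alone, so their direction was built in by the filter. Brighter probe sets of Basp1, Prpf19, Kpnb1 and Zfp292 were not called against resting, and that of Basp1 was not called against TI day 4 either. Lower were the red cell anion exchanger Slc4a1 (-3.07), Cd302 (-2.42), Jchain (-2.06), Mxd4 (-2.04), Map3k1 (-1.85), Ighm (-1.60), Ctsb (-1.38) and Cst3 (-0.94). Nfkb2 and Cdipt were lower than resting and higher than TI day 4, while Jchain was higher than resting and lower than TI day 4.

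Some control probe sets, which entered no test, read higher on both TD day 10 arrays than on both resting arrays. Those listed next were picked for that rise, and other controls did not share it. The 3' probe set of 18S RNA overlapped (resting 2539 and 2828, TD day 10 3007 and 2356). The CreX controls were lower in TD day 10, at the 3' end (1786 and 2322 against 1332 and 1304) and at the 5' end (1568 and 1888 against 1182 and 1123). The mean TD day 10 intensity was 1966.5 for the 5' probe set of 18S RNA (resting 1206 and 572), 11053 for the 5' Gapdh probe set (resting 5553 and 3067) and 10892.5 for the middle one (resting 5543 and 4593). The other Gapdh controls, those with the suffix st, had means of 621 at the 3' end (resting 370 and 208) and 257 at the 5' end (resting -89 and -42). The control named for murine FAS had a mean of 421.5 (resting 144 and 69). What these controls share with the gene results was not tested.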

How the results depend on the processing

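Against resting B cells 195 probe sets were called (114 higher, 81 lower) when only those 4 arrays entered the model and 511 (305 and 206) with array weights. With each array left out the count ran from 297 to 863 (178 to 508 higher, 119 to 355 lower). The other settings gave 581 to 820. Against TD day 4 there were 14 calls (10 higher, 4 lower) with no filter and the same numbers with equal-variance tests that borrow no spread between probe sets. Leaving out arrays gave 0 to 1 calls (0 to 1 lower). Against TI day 4 the counts were 104 with no filter (53 and 51), 102 with the equal-variance test (52 and 50), 292 with array weights (148 and 144) and 0 with only the 4 arrays (0 and 0). Leaving out arrays gave 4 to 45 (2 to 19 higher, 2 to 26 lower). The cause of these shifts was not tested, other than that some used fewer arrays.

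With the replicate number as a block, 588 probe sets were called against resting, 0 against TD day 4 and 107 (45 higher) against TI day 4. Deviations of same-numbered samples correlated between -0.217 (resting with TD day 10) and 0.121. The labels give no batch, and these values cannot tell whether same-numbered arrays were processed together. Of 135 called probe sets of named genes 0 reversed under the settings that tested them, and 75 lost their call with only the 4 arrays.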
